A study of Mus musculus with 18 samples.

Results

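The nuclear genes that encode the subunits of oxidative phosphorylation were followed in the hippocampus and the cortex of mice given urban particulate matter (UPM). Members were chosen by symbol: names beginning with Nduf and a subunit letter and number, the 4 Sdh genes, names beginning with Uqcr or Atp5, and names beginning with Cox and a number from 4 to 8, with at least 10 counts in at least 9 of the 18 libraries. Of 84 symbols that match, 81 were members, out of 23238 symbols in the files: 37 of complex I, 4 of complex II, 8 of complex III, 15 of complex IV and 17 of complex V. The members closest to the limit were Cox4i2, Cox7a1 and Ndufa4l2, with 10 counts or more in 13, 14 and 14 libraries. The matching symbols outside it were Cox7b2 and Cox8b, with 10 counts or more in 3 and 7 libraries, and Cox8c, which had 0 counts in all of them. Members are grouped by name, and some names are older than the present assignment. Ndufa4 is now counted as a subunit of complex IV but stands here with the Nduf genes, and Atp5s and Atp5sl match by name without being core subunits of the synthase.

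The mice were male C57BL/6 animals, 7 weeks old at the start, that received UPM (the reference dust SRM1648a) or its vehicle PBS into the nose. Short-term UPM was a daily dose for 3, 5 or 7 days. Long-term UPM was given 2 times per week for 3, 8, 12, 16 or 20 weeks. Age therefore rose with exposure time, and the dosing differed between short and long term. The effects of exposure time, age and dosing cannot be told apart here. The mice of a group contributed to 1 RNA pool, which left 1 library for each tissue and time and 1 control library for each tissue, whose time is not stated. Libraries of different times therefore served as replicates, and p-values measure the spread between these libraries, not between mice.

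Oxidative phosphorylation takes place at the inner membrane of mitochondria. Complexes I and II pass electrons from NADH and succinate to ubiquinone, complex III passes them on to cytochrome c, and complex IV passes them to oxygen. Complexes I, III and IV pump protons, and complex V, the ATP synthase, makes ATP as the protons flow back. Neurons draw most of their ATP from this pathway to restore ion gradients after firing. Complexes I, III, IV and V hold subunits from both the nuclear and the mitochondrial genome, whereas complex II, which is also the succinate dehydrogenase of the citric acid cycle, is encoded in the nucleus alone. The 26 mitochondrially encoded symbols looked for were not in the files used here, so only nuclear genes are described.

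The 18 libraries held 5.43 to 8.97 M counts (M, mega), and the file headers name their columns in 2 ways. The 8 libraries from 3 days to 3 weeks shared one naming, and the 10 libraries of the control and of 8 to 20 weeks shared another. What the naming stands for is not given in the sources used here. Rn45s, from which ribosomal RNA is cut, held a share of 14.8% to 18.6% in the first set and 7.75% to 12.9% in the second. A list of 7 long non-coding RNAs, among them Malat1 and Meg3, summed to 3286 to 7069 CPM (counts of a gene per M counts of its library, with library sizes scaled by TMM) in the first set and to 14366 to 27600 CPM in the second. Any contrast that sets 3, 5 or 7 days or 3 weeks against the control or later weeks also sets these naming sets against each other, and the 2 cannot be told apart. The tissue labels were borne out by markers: 6 of 6 hippocampal neuron genes were higher and 6 of 6 cortical neuron genes lower in hippocampus. Marker levels still varied within a tissue. The cortical neuron genes summed to 590 to 1752 CPM over the hippocampal libraries and to 2506 to 3796 CPM over the cortical ones. A list of 6 choroid plexus genes summed to 34.5 to 6815 CPM in hippocampus and 14.7 to 4146 CPM in cortex. The part of this spread in the results below was not tested. In bulk tissue, fewer cells of a type and less RNA per cell cannot be told apart, and this holds for every value below.

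As a group, the subunit genes stood higher in the 3-day to 3-week libraries than in the control and 8- to 20-week libraries. Members took 1.42% to 1.86% of all counts in the former, with a median of 1.61%, and 1.17% to 1.36% in the latter, with a median of 1.29%. With Rn45s left out of the total, the shares were 1.69% to 2.22% and 1.32% to 1.51%. Neither pair of ranges overlapped. The summed level of complex I was 5214 to 6804 CPM against 3811 to 4389 CPM, that of complex III 1771 to 2382 against 1114 to 1340, that of complex IV 4153 to 5838 against 2762 to 3212, and that of complex V 3608 to 4635 against 2738 to 3270. The sum of complex II did not follow. Its 4 genes summed to 491 to 625 CPM in the 3-day to 3-week libraries and to 471 to 560 CPM in the others. These ranges overlapped. Its share of all member counts was 2.93% to 3.45% and 4.05% to 4.54% respectively.

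**Figure D1:**
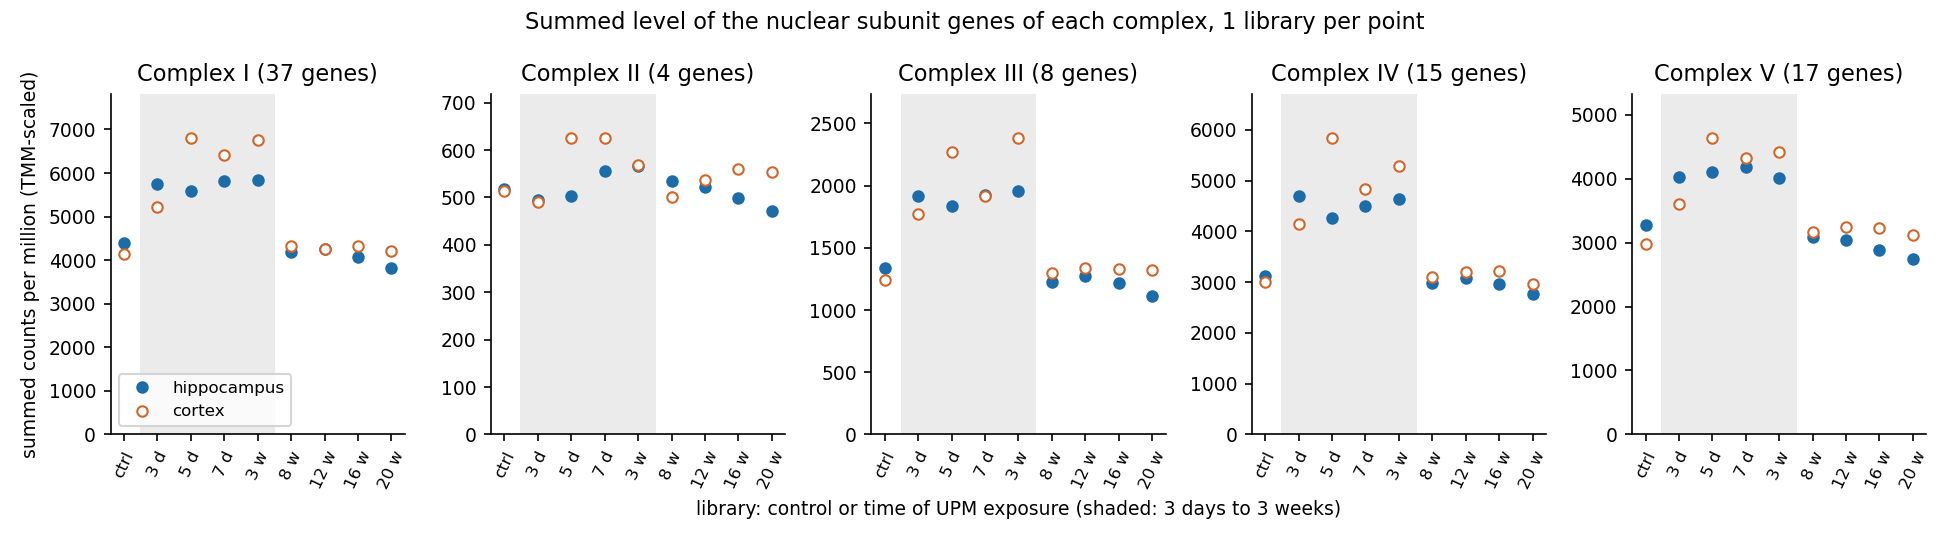
Summed TMM-scaled CPM of the members of each complex in the 18 libraries, with time on the horizontal axis and the tissues as separate point styles. Complexes I, III, IV and V step down between 3 and 8 weeks to the level of the control, whereas complex II stays between 471 and 625 CPM throughout.

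Gene by gene, 56 of the 81 members had all 4 hippocampal libraries of 3 days to 3 weeks above all 5 of the control and 8 to 20 weeks. Among 13523 genes compared in this way, 10.9% did so. In cortex, 51 members separated in this direction (12.9% of all genes), and 47 members did so in both tissues (6.09% of all genes). These were 23 of the 37 genes of complex I, 5 of 8 of complex III, 8 of 15 of complex IV, 11 of 17 of complex V and 0 of 4 of complex II. No member separated in the opposite direction in either tissue, which 10.3% of all genes did in hippocampus, 12.3% in cortex and 5.25% in both.

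Within the long-term groups, the mice of 8 to 20 weeks were older than those of 3 weeks of UPM. The comparison of these times asked whether the genes differed between them. It set 8 libraries against 2, with tissue as a covariate. Lower after 8 to 20 weeks were 58 of the 81 members, at a median log2 fold change of -0.59 over the 81, and none was higher. Over all genes tested, 15.3% were lower, 15.0% were higher, 30.2% were called in either direction and the median was 0.03. An unadjusted p under 0.05 was found for 63 members and for 41.1% of all genes. The comparison of short-term UPM with the control asked how the genes differed after days of exposure. It set 6 libraries against 2, none of them used in the former comparison. Higher in short-term UPM were 21 members, with a median of 0.44, and none was lower. Of all genes tested, 1.84% were higher, 2.51% were lower and 4.35% were called in either direction, at a median of -0.01. An unadjusted p under 0.05 was found for 51 members and for 19.0% of all genes. All 21 were among the 58 (36.2% of these), and 23 members passed in neither comparison. Both comparisons cross the naming sets, so these 2 results are not independent of that split. The 21 rest on the 2 control libraries, since without either of them 0 members passed, while leaving out any other library gave 17 to 26. All adjusted p-values are Benjamini-Hochberg values of edgeR's quasi-likelihood F test over all genes tested, and all 81 members passed the filter on low counts in each comparison.

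**Figure D2:**
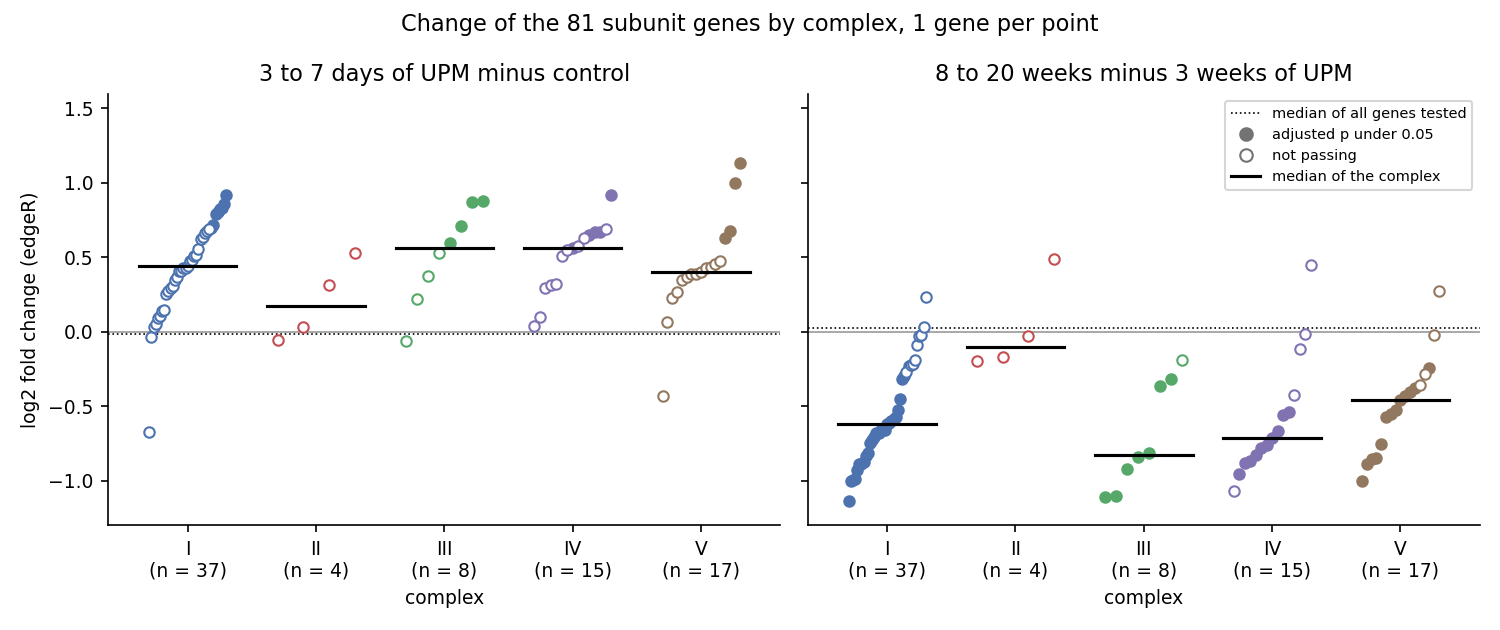
Log2 fold changes of the 81 members by complex, for 3 to 7 days of UPM minus control and 8 to 20 weeks minus 3 weeks of UPM, with 1 point per gene, filled where the adjusted p is under 0.05, a solid bar at the median of each complex and a dotted line at that of all genes tested. The points of complexes I, III, IV and V lie mostly above 0 in the former and below 0 in the latter. No point of complex II is filled in either.

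In complex I, 28 of 37 genes fell after 8 to 20 weeks (median -0.62) and 8 of 37 were higher in short-term UPM (median 0.44). Ndufa4 (chromosome 6, 11900292 to 11907497, minus strand, GRCm38), whose product sits in cytochrome c oxidase, had the largest fall. In hippocampus it stood at 166, 116, 156 and 161 CPM at 3, 5 and 7 days and 3 weeks. The hippocampal control was at 80.6 CPM, and 8, 12, 16 and 20 weeks were at 75.3, 70.2, 68.6 and 70.0 CPM. Its cortical level was 148, 163, 141 and 163 CPM in the first 4 times, 73.8 CPM in the control and 76.6, 73.4, 79.5 and 76.7 CPM from 8 to 20 weeks. Each of the 8 libraries of days to 3 weeks lay above each of the 10 others. The log2 fold change was -1.14 ± 0.07 (SE, adjusted p = 4.03e-07) for 8 to 20 weeks against 3 weeks and 0.92 ± 0.17 (adjusted p = 0.00722) in short-term UPM.

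Accessory subunits of complex I surround its catalytic core. The accessory gene Ndufa2 fell by 1.0 on the log2 scale, from 294 to 426 CPM in the 3-day to 3-week libraries to 183 to 207 CPM in the others (medians 341 and 191). Ndufa12, a subunit of the matrix arm, ranged over 182 to 279 CPM and 112 to 144 CPM (medians 233 and 122). Ndufa7 ranged over 122 to 178 CPM and 63.8 to 86.0 CPM (medians 136 and 78.0). None of these 3 ranges overlapped, and all 3 genes were also higher in short-term UPM, by 0.80, 0.83 and 0.82. Ndufa1, a short membrane subunit, was higher in short-term UPM by 0.86 ± 0.18 (adjusted p = 0.0144).

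The catalytic core of complex I moved less evenly. Ndufv1, which binds NADH and FMN, had a log2 fold change of -0.22 (adjusted p = 0.0614) at 8 to 20 weeks against 3 weeks and -0.03 in short-term UPM. Ndufs1, an iron-sulphur subunit, stood at -0.22 (adjusted p = 0.0898). Neither gene passed in either comparison, and the ranges of both overlapped between the sets: Ndufs1 stood at 103 to 135 CPM in the 3-day to 3-week libraries and at 89.2 to 112 CPM in the others. Of other nuclear core genes, a grouping made after the values were seen, Ndufs8 (-0.89), Ndufv2 (-0.82) and Ndufs3 (-0.30, adjusted p = 0.0479) fell, and Ndufs7 stood at 0.03 without passing.

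In complex II, 0 of 4 genes passed in either comparison by edgeR. Sdha, the flavoprotein that oxidises succinate, stood in hippocampus at 187 CPM in the control, at 156, 177, 200.4 and 226 CPM at 3, 5 and 7 days and 3 weeks, and at 179, 192, 165 and 158 CPM from 8 to 20 weeks. In cortex the same times gave 175 CPM, then 179.8, 217, 196 and 177 CPM, then 165, 177, 187 and 181 CPM. The groups overlapped in both tissues, and the log2 fold changes were -0.20 ± 0.10 (adjusted p = 0.157) at 8 to 20 weeks and 0.03 ± 0.15 (adjusted p = 0.945) in short-term UPM. Sdhb, the iron-sulphur subunit, stood at -0.17 (adjusted p = 0.124) and -0.05 (adjusted p = 0.906).

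Complex II is held in the membrane by the products of Sdhc and Sdhd. Sdhc stood in hippocampus at 112, 84.3 and 93.7 CPM at 3, 5 and 7 days, at 70.7 CPM at 3 weeks and at 67.0 to 75.6 CPM in the control and later libraries. In cortex it stood at 85.1, 93.5 and 94.6 CPM on the 3 short-term times, at 68.6 CPM at 3 weeks and at 63.6 to 72.8 CPM in the control and later libraries. The 3-week libraries, which share the header naming of the short-term ones, lay with the later libraries for this gene. Sdhc against short-term UPM was -0.45 at 3 weeks (unadjusted p = 0.0128, adjusted p = 0.999), so the difference did not pass over all genes. In hippocampus the Sdhd level was 25.5 CPM without UPM and 28.1, 30.1, 41.4, 30.2, 59.6, 24.0, 47.3 and 43.2 CPM at the successive times. Its cortical level was 19.6 CPM without UPM and 26.7, 42.1, 28.6, 34.8, 36.9, 48.3, 51.8 and 53.1 CPM at the successive times. The cortical control was the lowest cortical library, and the hippocampal control was the lowest but 1 of its tissue. For both Sdhc and Sdhd, every short-term library lay above the control of its tissue, although neither gene passed in short-term UPM. For Sdhd this is the log2 fold change given next. The log2 fold change of Sdhd in long-term UPM against control was 0.93 ± 0.29, with an unadjusted p of 0.00659 and no pass after adjustment. Sdhd was the 1 member under an unadjusted p of 0.05 there.

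**Figure D3:**
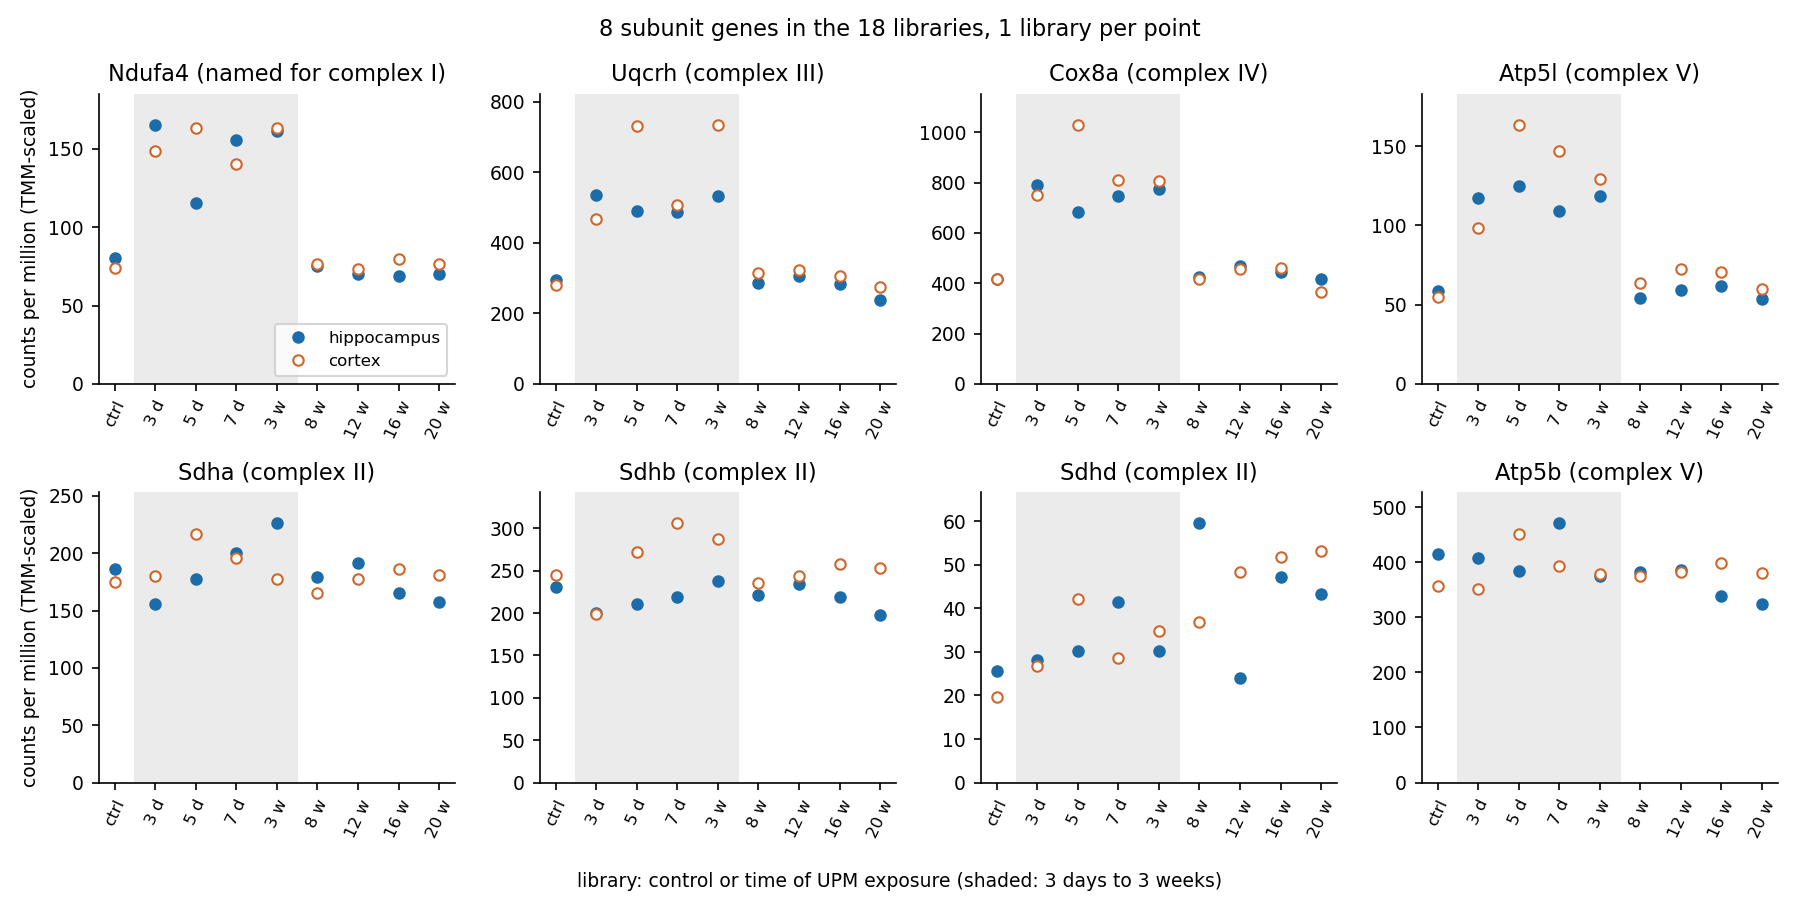
TMM-scaled CPM of single members in each library, with time on the horizontal axis and the tissues as separate point styles. Ndufa4, Uqcrh, Cox8a and Atp5l step down between 3 and 8 weeks to the control level in both tissues, whereas Sdha, Sdhb and Atp5b overlap between the sets and Sdhd is low in the controls.

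In complex III, 7 of 8 genes fell after 8 to 20 weeks (median -0.83, the most negative of the 5 complexes) and 4 of 8 were higher in short-term UPM (median 0.56). Uqcrh (chromosome 4, 116066965 to 116075071, minus strand), the acidic hinge protein beside cytochrome c1, stood in hippocampus at 294 CPM in the control, at 534, 491, 489 and 533 CPM from 3 days to 3 weeks, and at 286, 306, 282 and 239 CPM from 8 to 20 weeks. In cortex the control was at 279 CPM, the first 4 times at 467, 731, 506 and 735 CPM and the last 4 at 315, 323, 305 and 275 CPM. The groups did not overlap. Uqcrh changed by -1.11 ± 0.10 (adjusted p = 3.59e-06) at 8 to 20 weeks and by 0.88 ± 0.18 (adjusted p = 0.0127) in short-term UPM. Uqcr11, another small subunit, fell by 1.10 on the log2 scale. Uqcrc1, a large core protein on the matrix side, fell by 0.36 (adjusted p = 0.0283) but stood at -0.06 in short-term UPM. Uqcrfs1, the Rieske iron-sulphur protein, did not pass (-0.19, adjusted p = 0.222). The Uqcrc1 call was lost under 3 of 18 alternatives.

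In complex IV, 10 of 15 genes fell after 8 to 20 weeks (median -0.71) and 5 of 15 were higher in short-term UPM (median 0.56). Cox8a (chromosome 19, 7215153 to 7217616, minus strand), the ubiquitous form of a small membrane subunit, stood in hippocampus at 415 CPM in the control, at 790.3, 684, 748 and 774 CPM from 3 days to 3 weeks, and at 424, 471, 445 and 415 CPM from 8 to 20 weeks. The cortical libraries gave 418 CPM in the control, 749, 1031, 809 and 805 CPM in the next 4 times and 417, 457, 461 and 364 CPM in the last 4. No library of the later times reached any of 3 days to 3 weeks. The changes were -0.87 ± 0.09 (adjusted p = 1.10e-05) and 0.92 ± 0.16 (adjusted p = 0.00545). Cox6c, a nuclear subunit without an isoform, fell by 0.96, Cox4i1, the regulatory subunit that binds ATP, by 0.88, and Cox7a2 by 0.83 on the log2 scale.

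Cox5b, the zinc-binding subunit of complex IV, was highest in the short-term libraries of both tissues. In hippocampus it stood at 297, 283 and 363 CPM at 3, 5 and 7 days but at 210.2 CPM at 3 weeks, beside 233 CPM in the control and 201 to 225 CPM from 8 to 20 weeks. In cortex it stood at 284, 398 and 334 CPM, then at 235 CPM at 3 weeks, beside 206 CPM in the control and 224 to 234 CPM later. As for Sdhc, both 3-week libraries lay near the later ones. Cox5b had the smallest unadjusted p of the members for 3 weeks against 3 to 7 days (-0.57 ± 0.16, unadjusted p = 0.00294, adjusted p = 0.999). The difference thus did not pass over all genes. Cox5b, Sdhc and Uqcrc1 were the members under an unadjusted p of 0.05 there, beside 4.32% of all genes. Isoforms restricted to other tissues or conditions had few counts. Cox4i2, the oxygen-sensitive form of subunit 4, had 6 to 23 counts and stood at -0.42 ± 0.45 for 8 to 20 weeks, and Cox7a1, the muscle form, had 4 to 40 counts and stood at -1.07 ± 0.50 (adjusted p = 0.120).

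In complex V, 13 of 17 genes fell after 8 to 20 weeks (median -0.46) and 4 of 17 were higher in short-term UPM (median 0.40). Atp5l (chromosome 9, 44912557 to 44920742, minus strand), the g subunit of the membrane part, stood in hippocampus at 58.6 CPM in the control, at 117, 125, 109 and 119 CPM from 3 days to 3 weeks, and at 54.0, 59.0, 61.6 and 53.8 CPM from 8 to 20 weeks. The cortical values were 54.6 CPM in the control, 98.6, 164, 147 and 129 CPM in the next 4 times and then 63.7, 72.7, 70.5 and 60.0 CPM. The groups did not overlap in either tissue. Atp5l changed by -1.0 ± 0.09 (adjusted p = 3.96e-06) and by 1.13 ± 0.20 (adjusted p = 0.00508), the latter the largest rise of any member. Atp5e, the epsilon subunit of the central stalk, changed by -0.89 and by 1.0. Exons of Atp5l overlap those of Gm30934 on the other strand. Such an overlap was found for 25 of the 81 members. Among the named ones these were also Ndufa2, Ndufa4l2, Ndufa11, Ndufb2, Ndufs1, Ndufs3, Cox4i1, Cox6a2, Cox6c, Atp5a1 and Atp5j. Whether the counting used strand is not given in the sources used here, so their counts may hold reads of the partner gene. Exons of 4 members, among them Atp5g2 and Ndufb2, overlap those of another gene on the same strand.

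The catalytic head of the synthase is built from alpha and beta subunits. Atp5b, the beta subunit that makes ATP, stood at 324 to 471 CPM in hippocampus and at 352 to 452 CPM in cortex over all times, and its log2 fold changes were -0.02 ± 0.08 (adjusted p = 0.856) and 0.07 ± 0.14 (adjusted p = 0.863). The alpha subunit gene Atp5a1 stood in hippocampus at 470 to 569 CPM from 3 days to 3 weeks and at 349 to 404 CPM in the control and later libraries. The cortical ranges were 464 to 552 CPM and 383 to 431 CPM, so the sets did not overlap in either tissue. Atp5a1 fell by 0.24 at 8 to 20 weeks (adjusted p = 0.0330), a call lost under 8 of 18 alternatives. The 3 genes Atp5g1, Atp5g2 and Atp5g3 encode the same mature c subunit, the rotor ring, with different import sequences. Atp5g2 stood at 59.3 to 74.0 CPM in hippocampus and 56.7 to 70.8 CPM in cortex from 3 days to 3 weeks, and at 43.1 to 49.4 CPM and 42.0 to 51.6 CPM in the control and later libraries. It fell by 0.43 (adjusted p = 0.00406) and was higher in short-term UPM by 0.63 (adjusted p = 0.0458). Atp5g1 fell by 0.38 (adjusted p = 0.00798) without passing in short-term UPM (0.39, adjusted p = 0.167). Atp5g3 passed in neither, at -0.28 (adjusted p = 0.0599) and 0.35 (adjusted p = 0.214). Differences between the 3 c-subunit genes were not tested.

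Promoter sequence offers a second view of the members. From RefSeq (GRCm38.p6), 67 of the 81 members had a window from 250 bases before to 30 bases after the start. The windows of Ndufa4 and Uqcrh, which fell, and of Sdha and Sdhd, which did not pass, are printed 5′ to 3′ on the minus strand so that genes of both outcomes can be compared. Capitals mark matches on either strand to the NRF1 motif or the ETS motif CCGGAAG, the letters bound by the nuclear respiratory factors NRF1 and GABP. The NRF1 motif has 10 letters, which the capitals in Sdha spell out, with any base allowed at the sixth. The windows lie at chr6:11907421-11907700 for Ndufa4, chr4:116075041-116075320 for Uqcrh, chr13:74350211-74350490 for Sdha and chr9:50603820-50604099 for Sdhd.
Ndufa4: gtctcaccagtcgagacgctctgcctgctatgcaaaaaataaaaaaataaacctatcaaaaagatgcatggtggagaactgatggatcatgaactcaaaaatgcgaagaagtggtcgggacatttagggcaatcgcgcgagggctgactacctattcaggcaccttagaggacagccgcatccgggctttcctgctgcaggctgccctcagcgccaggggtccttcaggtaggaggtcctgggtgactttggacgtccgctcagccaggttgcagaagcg
Uqcrh: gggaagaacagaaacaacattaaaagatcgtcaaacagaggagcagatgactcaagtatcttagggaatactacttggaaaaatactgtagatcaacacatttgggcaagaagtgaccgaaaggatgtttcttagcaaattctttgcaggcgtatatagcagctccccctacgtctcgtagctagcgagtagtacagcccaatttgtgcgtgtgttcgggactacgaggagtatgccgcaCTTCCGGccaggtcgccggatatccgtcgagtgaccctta
Sdha: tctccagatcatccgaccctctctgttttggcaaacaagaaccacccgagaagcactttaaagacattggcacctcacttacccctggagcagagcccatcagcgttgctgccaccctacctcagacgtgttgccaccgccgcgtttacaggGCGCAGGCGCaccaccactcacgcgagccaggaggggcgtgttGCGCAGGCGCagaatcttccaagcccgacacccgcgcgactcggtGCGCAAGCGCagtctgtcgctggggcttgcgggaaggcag
Sdhd: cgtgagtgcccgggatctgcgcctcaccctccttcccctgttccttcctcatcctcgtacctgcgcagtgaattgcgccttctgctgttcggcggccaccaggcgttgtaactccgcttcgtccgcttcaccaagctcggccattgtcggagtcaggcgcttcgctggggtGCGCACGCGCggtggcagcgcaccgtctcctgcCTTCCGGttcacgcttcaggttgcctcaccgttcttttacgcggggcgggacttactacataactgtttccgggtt

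Sdha held 3 NRF1 matches, Sdhd 1 NRF1 and 1 ETS match, Uqcrh 1 ETS match and Ndufa4 none. Over the windows, 15 of 67 members (22.4%) held the NRF1 motif, beside 4.57% of 27025 genes and 9.59% of the 10246 genes with a mean of at least 10 counts. The ETS motif was in 15 members as well (22.4%), beside 8.70% of all genes and 16.4% of those with counts. The SP1 motif GGGCGG was in 26 members (38.8%), beside 34.9% and 62.9%. The ERR motif TCAAGGTCA was in 1 member (1.49%, beside 0.400% of all genes) and the YY1 motif AAGATGGCG in 0 (beside 1.10%). Among members with a window, the NRF1 motif was in 10 of the 49 that fell after 8 to 20 weeks (20.4%) and in 5 of the 18 that did not pass (27.8%). The ETS motif was in 13 of 49 (26.5%) and 2 of 18 (11.1%). The matches are a description of these letters in these windows.

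The change of a member went with the annotated spliced length of its gene. Spliced lengths from GENCODE M21 were found for 80 of the 81 members and ran from 371 to 4715 bases, with a median of 835. The longest were those of Atp5g1 and Ndufb2, at 4715 and 4371 bases. Whether the annotated lengths are those of the transcripts counted here was not tested. Over these 80 genes the log2 fold change of 8 to 20 weeks against 3 weeks had a Spearman rho of 0.50 with this length. Members of shorter annotated length thus fell more. Over 13646 genes of all kinds rho was 0.22. In short-term UPM against control rho was -0.48 over the members and -0.25 over 13429 genes. The genes share their libraries, so these are descriptions over genes and not over replicates. Of 20 members under 600 bases, 18 fell, with a median of -0.86, whereas the 162 genes of this length had a median of -0.71 and 56.2% of them fell. Of 29 members of 600 to 1000 bases, 20 fell (median -0.57; all genes -0.43, with 42.8% falling). Of 23 members of 1000 to 2000 bases, 15 fell (median -0.54; all genes -0.11, with 20.8% falling), and of 8 longer members, 4 fell (median -0.22; all genes 0.08, with 11.7% falling). The part of length in the differences between complexes was not tested.

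**Figure D4:**
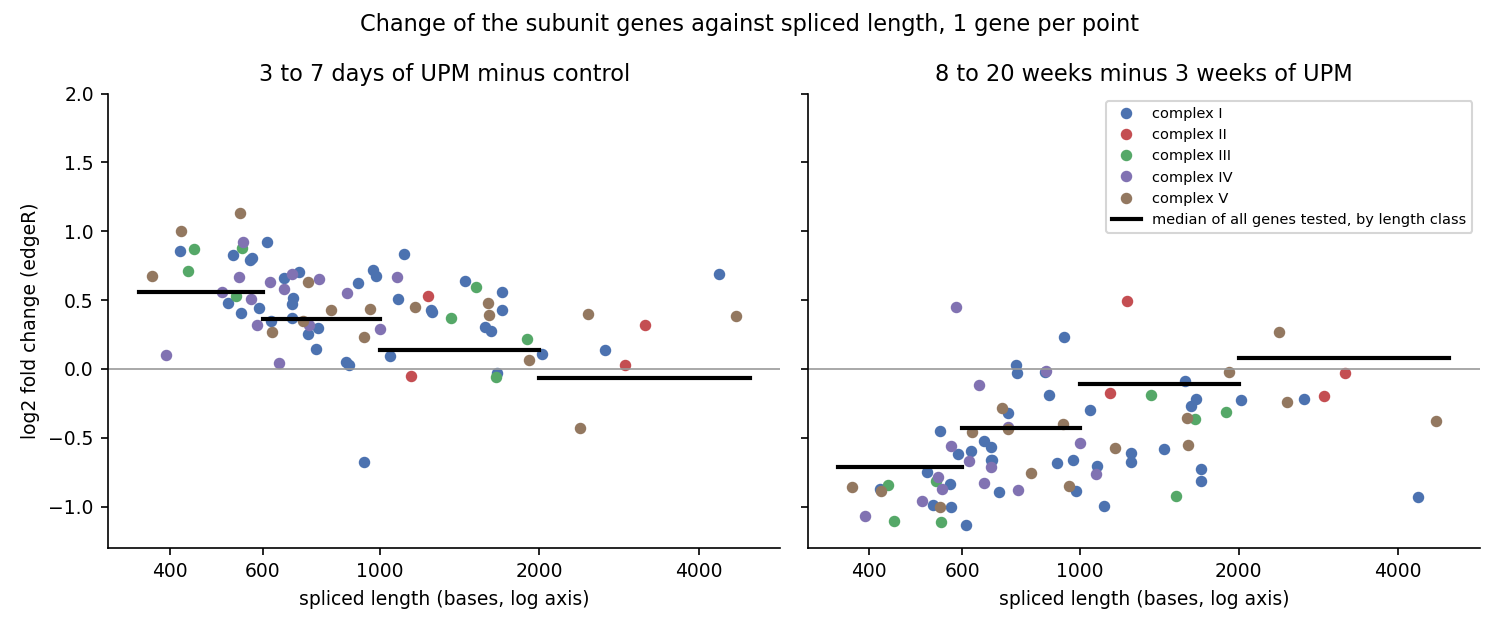
Log2 fold change against annotated spliced length in bases on a log axis. The contrasts are 3 to 7 days of UPM minus control and 8 to 20 weeks minus 3 weeks of UPM. There is 1 point per member coloured by complex, and black bars mark the median of all genes tested in each length class. At 8 to 20 weeks, members under 600 bases have a median of -0.86 beside a bar at -0.71, and members of 2000 bases or more a median of -0.22 beside a bar at 0.08.

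Within a naming set, no member passed in a comparison of exposure times. At 3 weeks against 3 to 7 days of UPM, edgeR called 0 of 81 members (0.0% of all genes tested), with 3 members under an unadjusted p of 0.05 (4.32% of all genes): Cox5b, Sdhc and Uqcrc1. The median was 0.07. As a slope over 8 to 20 weeks, edgeR called 0 members (0.286% of all genes, 0.272% lower and 0.0143% higher). Ndufa7 (-0.22 per 10 weeks) and Uqcrh (-0.20) were among the members with an unadjusted p under 0.05, as were 9.79% of all genes. The median slope was -0.06 per 10 weeks. DESeq2 and limma-voom also called 0 members in both. Long-term UPM against control, whose long-term group spans both sets, gave 0 members by each of these tools (0.0% of all genes by edgeR) and a median of 0.12, with Sdhd alone under an unadjusted p of 0.05 (2.18% of all genes). In cortex, the control library was the lowest of the 9 for 29 members and the highest for 1 (9.94% and 9.95% of 13523 genes). In hippocampus it was the lowest for 3 members and the highest for 2 (6.30% and 7.88% of all genes).

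Long-term against short-term UPM, the contrast of exposure classes named by the labels, called 0 members by edgeR in hippocampus, with 47 under an unadjusted p of 0.05 (21.7% of all genes) and a median of -0.38. Of all genes 0.273% were called, 0.209% higher and 0.0647% lower, at a median of 0.02. In cortex it called 0 as well, with 31 under an unadjusted p of 0.05 (21.2% of all genes) and a median of -0.34 (0.0% of all genes called, median 0.00). The smallest adjusted p in hippocampus was 0.0531, for Cox5b (-0.57 ± 0.12), and in cortex 0.0882, also for Cox5b (-0.56 ± 0.13). DESeq2 called 17 and 6 members, all lower (3.07% and 2.01% of all genes lower, 8.33% and 5.85% called in either direction). The edgeR counts of 0 rest on the 3-week library: without it, by edgeR, 57 members fell in hippocampus and 0 rose (8.32% of all genes lower and 7.94% higher), and in cortex 53 fell and 1 rose (11.8% of all genes lower and 10.9% higher). The change itself was not shown to differ between tissues, with 0 members called by edgeR, DESeq2 and limma-voom for that difference (0.0% of all genes), and Ndufs7, Uqcrc1 and Ndufs1 under an unadjusted p of 0.05 by edgeR (7.78% of all genes).

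Between the tissues, subunit genes differed little. Hippocampus was lower than cortex for 5 members and higher for 0, with a median of -0.08, in a fit with exposure time as a factor (9.26% of all genes lower, 7.6% higher and 16.9% called in either direction, median 0.00). An unadjusted p under 0.05 was found for 14 members and 28.5% of all genes. Without exposure time in the fit 1 member passed, Cox6a2 (adjusted p = 0.0236), beside 12.2% of all genes, and the 4 others stood at an adjusted p of 0.0762 to 0.265. Cox6a2, the muscle form of a complex IV subunit that is also found in parvalbumin interneurons, had the largest difference. From the control through the 8 successive times its hippocampal level was 6.20, 17.6, 10.4, 6.28, 11.5, 7.75, 6.65, 7.46 and 6.05 CPM. Its cortical level was 12.1, 11.5, 22.1, 20.1, 20.0, 12.5, 13.1, 12.8 and 10.3 CPM. Hippocampus was lower at 8 of 9 times, all but 3 days, and the log2 fold change was -0.79 ± 0.18 (adjusted p = 0.00513). A list of 4 parvalbumin interneuron genes had 0 higher and 1 lower gene in hippocampus and summed to 375 to 474 CPM there and 313 to 580 CPM in cortex. Its part in the difference was not tested.

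Ndufb4, an accessory subunit of the membrane arm, stood in hippocampus at 75.0 CPM in the control, at 99.2, 98.9, 99.3 and 88.5 CPM from 3 days to 3 weeks and at 59.8, 59.0, 55.4 and 54.3 CPM from 8 to 20 weeks. In cortex it stood at 56.9 CPM in the control, at 101, 132, 139 and 136 CPM and then at 76.6, 78.1, 89.6 and 94.2 CPM. Hippocampus was lower at all times except the control, by -0.38 ± 0.10 on the log2 scale (adjusted p = 0.0153, or 0.177 without exposure time in the fit). Atp5o, the stalk protein that links the head to the stator, was lower at 9 of 9 times (-0.20 ± 0.06, adjusted p = 0.0293), with both controls at 224 CPM to 3 digits. Sdhb was lower at 8 of 9 times (-0.22 ± 0.06, adjusted p = 0.0302), and Ndufa11, an accessory subunit of complex I, at 8 of 9 (-0.22 ± 0.07, adjusted p = 0.0410). These last 3 differences are small and were lost under 13, 15 and 18 of 28 alternatives. Within the 3-day to 3-week libraries 0 members passed by edgeR, beside 4.67% of all genes. Within the control and 8- to 20-week libraries 2 members passed, beside 20.1% of all genes. Across the members, 2 were lower in hippocampus at every time and 0 were higher at every time. The same count was not made over all genes, so nothing is read from it.

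**Figure D5:**
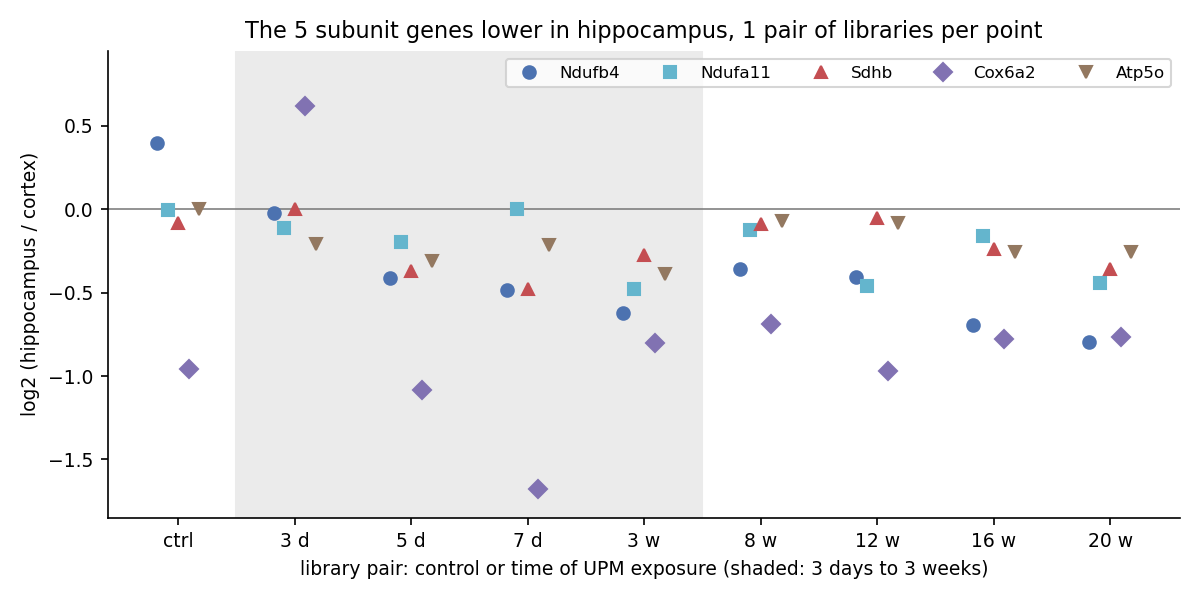
Log2 ratio of hippocampus to cortex in TMM-scaled CPM at each of the 9 times for the 5 members that passed between the tissues. Atp5o lies below 0 at 9 of 9 times and the other 4 genes at 8 of 9.

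Other mitochondrial genes are given beside the shares of all genes in the same comparison, 15.3% lower and 15.0% higher. At 8 to 20 weeks against 3 weeks, 15 of 46 assembly factors fell and 3 rose, with a median of -0.23. Uqcc2, an assembly factor of complex III (-1.12), Pet100, one of complex IV (-1.11), and Cox14 (-0.68) had the smallest p. Of 12 further subunits and carriers 6 fell and 0 rose (median -0.45), among them Usmg5, a small subunit of the synthase (-0.87), and the outer membrane channel Vdac3 (-0.76). Of 26 import and cristae genes 14 fell and 2 rose (median -0.31), with Timm22, the core of the carrier translocase, at -2.99.

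A list of 21 genes for the citric acid cycle also held Got2, a mitochondrial aspartate aminotransferase that is not an enzyme of the cycle. Of this list 7 genes were lower and 2 higher (median -0.19). Got2 was higher by 0.46 and the isocitrate dehydrogenase gene Idh3a lower by 0.42. Of 22 genes of mitochondrial DNA expression and biogenesis 5 fell and 4 rose (median -0.05). Lrpprc, which stabilises mitochondrial messenger RNA, was higher by 1.05, and Gabpa, which encodes the ETS factor of GABP, was lower, at -1.17. Its exons overlap those of the member Atp5j on the other strand. In short-term UPM against control, 2 of 47 assembly factors, 0 of 12 further subunits and carriers and 1 of 26 import genes were higher. So were 0 of 21 genes of the citric acid cycle list and 0 of 21 biogenesis genes (1.84% of all genes). Each of these lists but the assembly factors and the further subunits also had 1 lower gene.

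Measures outside mitochondria are given for the same sets of libraries, and not all of them moved with the members. Of 77 genes of cytosolic ribosomal proteins 74 fell and 1 rose at 8 to 20 weeks against 3 weeks (median -0.82), and 31 were higher in short-term UPM (median 0.61). They summed to 13153 to 20440 CPM from 3 days to 3 weeks and to 9610 to 11447 CPM in the control and later libraries. Of the 7 long non-coding RNAs 6 rose and 1 fell at 8 to 20 weeks (median 2.47), and 6 were lower in short-term UPM (median -2.56). Of 5 red blood cell genes 3 fell at 8 to 20 weeks, and their summed level was 872 to 2791 CPM in the former set and 624 to 1194 CPM in the latter, so these ranges overlapped. The 5 astrocyte genes summed in hippocampus to 947 to 1147 CPM and 775 to 937 CPM, which did not overlap, and in cortex to 652 to 851 CPM and 547 to 666 CPM, which did. None of the 5 passed, at a median of 0.42 in short-term UPM and -0.25 at 8 to 20 weeks. The 5 endothelial genes summed to 85.4 to 105 CPM and 106 to 142 CPM, of which 1 gene rose at 8 to 20 weeks. The 5 general neuron markers summed to 4825 to 6681 CPM and 4254 to 6337 CPM, with 1 of 5 lower, and none was at 0 in any library. The sums of microglia genes (195 to 295 CPM and 194 to 276 CPM) and oligodendrocyte genes (2746 to 5708 CPM and 1608 to 6002 CPM) overlapped. So did those of mural cell genes (79.1 to 144 CPM and 88.9 to 260 CPM). The part of these measures in the members' result was not tested.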

How the data were processed

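RNA pooled over the mice of a group was sequenced from its polyadenylated 3' ends with an oligo-dT primed kit, single-end with 75 bp reads, per the labels' protocols. Each deposited file holds unnormalised whole-number counts by gene symbol. The submitters' processing notes name Bowtie2, bedtools, edgeR and the build mm10, without versions or roles. The annotation, strandedness and handling of multi-mapped reads in the authors' counting are not given in the sources used here. Repeated symbols were added up, and 27 symbols changed to dates in 2 files were set back. With 5.43 to 8.97 M counts per library, 1 count equals 0.112 to 0.184 CPM before TMM scaling. No 2 libraries agreed within counting noise (lowest ratio of chi-squared to degrees of freedom 4.86).

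After filterByExpr and TMM scaling, edgeR 4.0.16 (R 4.3.3) ran its quasi-likelihood F test, with Benjamini-Hochberg adjustment over all genes tested and a threshold of 0.05. The fits were tested on simulated data, with 100 genes changed 1.5-fold and 100 changed 2-fold. For short-term UPM against control 17% and 79% were recovered, and for long-term against short-term UPM in hippocampus 21% and 62%. For 8 to 20 weeks against 3 weeks 55% and 97% were recovered, and between tissues 94% and 100%. A member that did not pass may therefore still have changed. Alternatives were DESeq2 1.42.0, limma-voom (limma 3.58.1), RLE size factors, total counts with and without Rn45s, no filter, a mean of at least 50 counts, a block on exposure time, and leaving out each library. The comparison of tissues within each naming set was added after the data were seen. The members and lists were chosen with earlier results of these data known. Members named are, per comparison, up to 8 with the largest change in each direction among those past the threshold, the 5 with the smallest p where fewer passed, and the core, c-subunit and tissue-specific genes. Of the other lists, the 3 genes with the smallest p are named. Members named otherwise were chosen after their values were seen: Ndufs3, Ndufs7, Ndufs8 and Ndufv2 in complex I. Positions and lengths are from GENCODE M21 (GRCm38), and promoter windows from RefSeq (GRCm38.p6). The values of 1 member are not reported here, and it is counted in the totals.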

Additional observations from a re-analysis of the deposited data

Results flagged for a closer look

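In 18 of 40 groups of long-term libraries tested, 1 library stood apart from the other 4 by Dixon's criterion, and chance flags about 1 in 20 groups. In each case it was the 3-week library, the 1 long-term library per tissue that shares the header naming of the short-term ones. The groups share libraries and genes that move together, so the 18 are not separate observations. The single genes were shown for their changes, among them the change against 3 weeks itself, so their number cannot be set against the chance rate. The cause was not tested.

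The members took 1.71% of the counts of the cortical 3-week library, beside 1.21% to 1.30% at 8 to 20 weeks. Of the member counts in hippocampus, the 3-week library gave the lowest share to complex I (34.3%, beside 34.9% to 35.0%) and to complex II (3.33%, beside 4.28% to 4.45%). It gave the highest share to complex III (11.5%, beside 10.2% to 10.5%) and to complex IV (27.3%, beside 24.9% to 25.5%). In cortex, complex III was at 12.3% (beside 10.5% to 10.9%) and complex V at 22.8% (beside 25.5% to 25.8%).

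Among single genes, the 3-week library was the highest for Ndufa4 in hippocampus (161 CPM, beside 68.6 to 75.3) and cortex (163 CPM, beside 73.4 to 79.5). The same held for Atp5l (119 CPM, beside 53.8 to 61.6, and 129 CPM, beside 60.0 to 72.7), for Cox8a (774 CPM, beside 415 to 471, and 805 CPM, beside 364 to 461) and for Uqcrh (533 CPM, beside 239 to 306, and 735 CPM, beside 275 to 323). In hippocampus alone it held for Atp5g1 (92.7 CPM, beside 67.6 to 74.0) and Ndufb4 (88.5 CPM, beside 54.3 to 59.8). In cortex alone it held for Cox6a2 (20.0 CPM, beside 10.3 to 13.1).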

How the results depend on the processing

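The fall of the members at 8 to 20 weeks against 3 weeks kept its direction under every alternative run, with 49 to 60 members called beside 58 and a median of -0.66 to -0.38 (-0.71 to -0.54 relative to all genes). Total counts in place of TMM moved the median of all genes there from 0.03 to 0.23, and in short-term UPM against control from -0.01 to -0.18. The 21 members higher in short-term UPM became 37 with DESeq2 (3.97% of all genes higher) and 12 with total counts, and the median ran from 0.27 to 0.58. The 5 members lower in hippocampus became 2 with total counts and 2 with total counts without Rn45s, 0 within the 3-day to 3-week libraries and 2 within the others. Long-term against short-term UPM in hippocampus called 17 members with DESeq2, 1 with total counts, 2 without a filter and 57 with the 3-week library left out. In cortex it called 6 with DESeq2 and 54 with that library left out. Leaving out 1 library in turn gave 49 to 58 members at 8 to 20 weeks, 0 to 26 in short-term UPM (0 without either control), 2 to 7 between tissues (2 without any 1 of the 5-day, 3-week, 16-week or 20-week libraries of either tissue), 0 to 57 in hippocampus and 0 to 54 in cortex for long against short term, and 0 in the 4 other comparisons. Cox6b2, chosen after its values were seen, turned from 0.50 to -0.20 in long-term UPM against control without the hippocampal control and to 1.41 without the cortical one, with no call in any of them. Of single members tested under alternatives, 1055 results kept their side of the threshold, 98 lost it, 33 gained it and 1 reversed. The causes of these changes were not tested. For several of these settings no share of all genes is given. There, a change in the count of members cannot be told from a change over all genes. With 1 count worth up to 0.184 CPM before TMM scaling, Cox4i2, Cox7a1 and Ndufa4l2 limit what can be seen.

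In the labels, exposure time is what links the libraries of the tissues. The deviations of same-time libraries correlated across 14865 genes at r = -0.14 to 0.18 (other times -0.20 to 0.19), and 4 of 9 hippocampal libraries were closest to their own time. Across the 81 members r was -0.03 to 0.55 (other times -0.48 to 0.45), and 5 of 9 hippocampal libraries were closest to their own time. Libraries of the same time may therefore not be independent between the tissues. With exposure time as a replicate block, 59 members fell at 8 to 20 weeks (16.6% of all genes lower) and 31 were higher in short-term UPM (2.35% of all genes higher). Between the tissues, the fit with no replicate block called 1 member.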
